A study of Homo sapiens with 6 samples.

Results

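The 10 genes described here encode secreted proteins of the extracellular matrix: tenascin C (TNC), thrombospondins 1 and 2 (THBS1, THBS2), SPARC and periostin (SPARC, POSTN), fibronectin (FN1), 3 fibulins (EFEMP1, EFEMP2, FBLN1) and fibrillin 1 (FBN1). They are the rows of a table of 58051 genes that carry these symbols, and all 10 had a row. TNC and EFEMP2 were chosen for their opposite differences between the groups, so their values are given as a description and without a p-value. The other 8 were listed by family. RNA was sequenced as polyA libraries from U2OS cells, a human osteosarcoma line of mesenchymal origin kept in DMEM with 10% foetal bovine serum. The siSURF2 group (3 libraries) received siRNA against SURF2, and the siSCR group (3 libraries) received a scrambled siRNA. How many siRNA sequences were used is unknown here, and effects of SURF2 loss and off-target effects of the siRNA cannot be told apart. All cells were transfected 2 times, 49 h apart, and were taken at 96 h, so both groups carry the effects of transfection. All 6 libraries come from a single cancer cell line. Nothing in the labels ties the replicates to separate cultures, so a p-value here covers the variation among libraries, part or all of which may be technical.

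Matricellular proteins such as tenascin C, thrombospondins, SPARC and periostin are secreted into the matrix, where they tune how cells attach, move and receive growth factors more than they bear load. Elastic fibres are built on a scaffold of fibrillin microfibrils. Fibulins and lysyl oxidases help to lay elastin onto that scaffold, and fibronectin fibrils and latent TGF-beta binding proteins hold growth factors in the same matrix. Cells of the osteoblast lineage, from which osteosarcoma arises, make SPARC, fibronectin and fibrillin as part of bone matrix.

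Counts assigned to genes ranged from 18151554 to 19688089 in siSURF2 libraries and from 17123333 to 19573786 in siSCR libraries, and levels are given in CPM, counts scaled to library size, of which 1 was about 17 to 20 counts. SURF2 itself was at 3.50 ± 0.276 CPM in siSURF2 libraries and 34.8 ± 2.11 CPM in siSCR libraries (SD, n = 3 each). siSURF2 replicate 2 stood apart from the other siSURF2 libraries, its counts differing from those of replicates 1 and 3 by chi-squares of 7.96 and 9.19 per degree of freedom, against 2.68 between that pair. Reads of the mitochondrial genome made up 2.73% of its gene counts and 4.70% and 4.74% of those of the other siSURF2 libraries, against 2.91% to 3.50% in siSCR libraries. To a lesser degree siSCR replicate 3 differed from siSCR replicates 1 and 2, by chi-squares of 4.11 and 3.98, against 2.38 between that pair. Of 8 osteoblast lineage markers, RUNX2 and COL1A1 had at least 1 CPM in all 6 libraries and ALPL in the siSCR libraries, while IBSP was at 0 throughout and SP7, BGLAP, COL1A2 and DLX5 had at most 14 counts in a library. ALPL was at 0.742 ± 0.148 CPM in siSURF2 libraries and 3.15 ± 0.132 CPM in siSCR libraries and fell by 2.07 on the log2 scale, COL1A1 rose by 0.43 and RUNX2 was not called (log2 fold change 0.02). The 12 markers of immune, endothelial, epithelial, red blood and muscle cells summed to 13.7 to 15.8 CPM in siSURF2 libraries and 14.3 to 15.1 CPM in siSCR libraries, and CD3E and HBB had no count in any library. Among them the epithelial marker EPCAM was at 8.74 ± 0.240 CPM in siSURF2 libraries and 4.41 ± 0.381 CPM in siSCR libraries and rose by 0.99 on the log2 scale, while CDH1 fell by 2.70 and PECAM1 by 1.34. VWF, an endothelial marker like PECAM1, and MYH11 were not called (log2 fold changes 0.00 and -0.08). The part of these lineage and other markers in the results below was not tested.

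Across all 17561 genes tested, the edgeR fit called 25.8% higher and 26.2% lower in siSURF2 libraries, 52.0% in all (quasi-likelihood test; threshold of 0.05 on the p adjusted by Benjamini and Hochberg). Of the 8 genes that were listed by family, FN1, EFEMP1, FBN1, SPARC and FBLN1 rose, THBS1 fell, THBS2 was not called and POSTN had too few counts to be tested. Their median log2 fold change over the 7 tested was 0.47, against 0.00 over all genes tested. The groups did not overlap for 6 of these 7, and they did not overlap for 57.3% of all genes tested, 28.6% with siSURF2 higher and 28.6% with siSURF2 lower. The choice of genes was made with these results known, so these counts describe the genes listed and no more. In bulk RNA, a change in the number of cells that make a transcript and a change in transcripts per cell cannot be told apart.

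**Figure D1:**
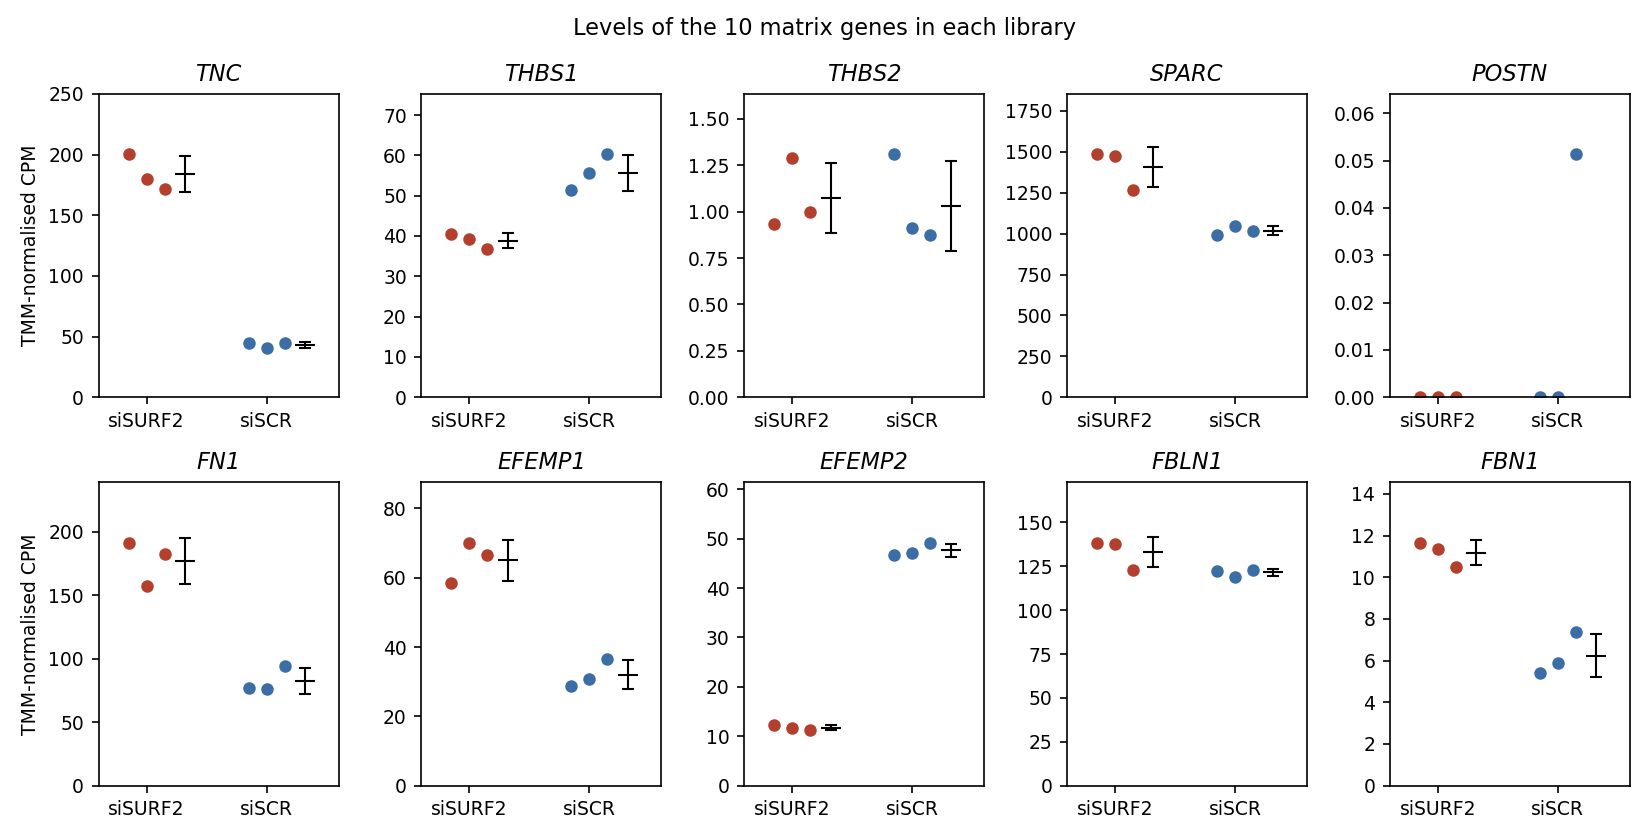
Normalised levels of the 10 genes, in TMM-normalised CPM on axes that start at 0, with 1 point per library, siSURF2 in red and siSCR in blue. Bars give mean ± SD over 3 libraries (left out for POSTN, which had 1 read in all), and the panels show TNC at 171.9 to 200.2 CPM in siSURF2 libraries against 40.3 to 44.7 CPM in siSCR libraries, EFEMP2 in the opposite order, and THBS2 with overlapping groups.

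Tenascin C is a large hexameric glycoprotein that is abundant in developing bone, healing wounds and tumour stroma and that weakens the hold of cells on fibronectin. TNC (ENSG00000041982; chromosome 9, 115019578 to 115118257, minus strand, GRCh38) had 200.2, 179.5 and 171.9 CPM in siSURF2 replicates 1, 2 and 3, against 44.4, 40.3 and 44.7 CPM in siSCR replicates 1, 2 and 3. Every siSURF2 library lay above every siSCR library, with a wide gap. The means were 183.9 ± 14.7 CPM with siSURF2 and 43.1 ± 2.48 CPM with siSCR (SD, n = 3 each), a 4.26-fold higher level and a log2 fold change of 2.09 ± 0.06 (SE). It ranked 104th from the top of the 17561 genes tested by log2 fold change. Of its 9636 exonic bases, 129 overlap DELEC1 on the opposite strand, a gene with 0 to 10 counts in a library.

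Fibulin 4, the product of EFEMP2, is needed for elastic fibres to form and brings lysyl oxidase to tropoelastin. EFEMP2 (ENSG00000172638; chromosome 11, 65866441 to 65873592, minus strand) had 12.2, 11.7 and 11.2 CPM in siSURF2 replicates 1, 2 and 3, against 46.7, 47.1 and 49.2 CPM in siSCR replicates 1, 2 and 3. All siSURF2 libraries were low and all siSCR libraries high, and within each group the libraries were close to each other. The means were 11.7 ± 0.507 CPM with siSURF2 and 47.7 ± 1.33 CPM with siSCR, a 4.08-fold lower level and a log2 fold change of -2.03 ± 0.07 (SE). It ranked 148th from the bottom of all genes tested. Its exons share 11 bases with MUS81 on the opposite strand, a gene with 768 to 898 counts in a library. EFEMP2 had 222 to 226 counts in siSURF2 libraries and 785 to 958 counts in siSCR libraries.

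The sequences around the start sites of 4 of these genes are shown because they include the pair chosen for opposite values and, beside it, FN1, which rose, and THBS1, which fell. They are RefSeq windows on GRCh38.p14 of 250 bases before and 50 after the annotated start, written along the gene's own strand, and 9 of the 10 genes were matched in that table, EFEMP1 being the exception. The windows of EFEMP2, SPARC, FBLN1 and FBN1 lie wholly within the gene spans given in this text, so starts farther upstream are not covered. Capitals mark matches on either strand to 5 motifs. The core of a TATA box was searched as TATAA, and the box named for the letters CCAAT was searched as such. The GC box, a site of SP1, was searched as GGGCGG. The site of AP-1 factors was searched as TGANTCA. The cAMP response element was searched as TGACGTCA.
TNC, chr9:115118108-115118407, minus strand: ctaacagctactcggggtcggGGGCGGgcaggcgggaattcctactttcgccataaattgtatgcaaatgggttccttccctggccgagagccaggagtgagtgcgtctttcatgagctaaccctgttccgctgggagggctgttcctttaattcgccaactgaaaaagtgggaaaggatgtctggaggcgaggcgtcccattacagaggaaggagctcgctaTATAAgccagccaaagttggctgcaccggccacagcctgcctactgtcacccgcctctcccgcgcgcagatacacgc
FN1, chr2:215436019-215436318, minus strand: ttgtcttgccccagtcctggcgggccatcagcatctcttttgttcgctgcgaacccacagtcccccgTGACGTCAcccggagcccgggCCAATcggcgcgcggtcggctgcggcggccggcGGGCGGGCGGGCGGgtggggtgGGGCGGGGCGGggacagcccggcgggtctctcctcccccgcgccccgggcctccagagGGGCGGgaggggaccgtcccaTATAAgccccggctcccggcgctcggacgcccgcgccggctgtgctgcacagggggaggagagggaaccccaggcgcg
EFEMP2, chr11:65872751-65873050, minus strand: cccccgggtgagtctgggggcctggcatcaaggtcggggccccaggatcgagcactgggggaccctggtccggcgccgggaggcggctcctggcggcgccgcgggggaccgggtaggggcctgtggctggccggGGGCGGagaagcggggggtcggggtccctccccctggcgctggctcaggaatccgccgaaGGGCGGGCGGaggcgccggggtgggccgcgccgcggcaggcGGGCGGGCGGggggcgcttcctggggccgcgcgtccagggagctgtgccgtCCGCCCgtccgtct
THBS1, chr15:39580829-39581128, plus strand: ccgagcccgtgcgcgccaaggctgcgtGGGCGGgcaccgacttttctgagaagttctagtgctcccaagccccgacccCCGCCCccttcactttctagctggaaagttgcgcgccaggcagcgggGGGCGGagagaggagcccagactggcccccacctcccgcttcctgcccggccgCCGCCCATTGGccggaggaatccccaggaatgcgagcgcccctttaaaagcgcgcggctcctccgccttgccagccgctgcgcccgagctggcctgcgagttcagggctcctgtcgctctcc

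In the TNC window TATAA began at position -27 from the start, and in FN1 at position -28. The letters TATAA were absent from the windows of EFEMP2 and THBS1, and equally from those of SPARC, FBN1 and FBLN1, which rose, and 20.4% of the 35116 windows in the table held them. THBS2 also held TATAA, at position -29, and POSTN held it at positions -181, -180, -141 and -29. GGGCGG occurred 6 times in FN1, 6 times in EFEMP2, 4 times in THBS1 and 1 time in TNC, and was found in 45.0% of all windows. Some of those matches overlap each other in runs of repeated GGGCGG. A match to CCAAT lay in the FN1 and THBS1 windows and in 34.6% of all windows. TGACGTCA was present in FN1 at position -183, and 1.85% of all windows held it. TGANTCA was present in POSTN alone among the members with a window (all but EFEMP1) and in 7.71% of all windows. The G and C content was 57.3% in TNC, 70.0% in THBS1, 76.7% in FN1 and 80.7% in EFEMP2, against a median of 58.7% over all windows. These matches are letters in a window and were not tested against expression.

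Thrombospondin 1 is a trimeric glycoprotein that binds CD47 and other receptors, opposes blood vessel growth and can activate latent TGF-beta. THBS1 (ENSG00000137801; chromosome 15, 39581079 to 39599466, plus strand) had 40.5, 39.2 and 36.9 CPM in siSURF2 replicates 1, 2 and 3, against 51.3, 55.6 and 60.3 CPM in siSCR replicates 1, 2 and 3. The groups did not overlap, although the gap between the nearest libraries was about as wide as the spread within siSCR. The means were 38.9 ± 1.82 CPM with siSURF2 and 55.7 ± 4.49 CPM with siSCR, and THBS1 fell by 0.52 ± 0.07 on the log2 scale (SE, edgeR adjusted p = 1.4e-07). With library sizes set by the ERCC spike-in totals the log2 fold change was -0.59 ± 0.27 (SE) and the adjusted p was 0.19, within a range of 3.6e-13 to 0.19 over all alternatives. FSIP1 and THBS1-AS1, on the opposite strand, share 448 and 411 exonic bases with it, and had 31 to 59 and 0 to 4 counts in a library against 736 to 1174 counts of THBS1.

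Thrombospondin 2, a close relative that shapes collagen fibrils, was scarcely expressed. THBS2 (ENSG00000186340; chromosome 6, 169215780 to 169254044, minus strand) had 0.935, 1.29 and 1.00 CPM in siSURF2 replicates 1, 2 and 3, against 1.31, 0.909 and 0.873 CPM in siSCR replicates 1, 2 and 3, which rest on 17 to 25 counts. The groups overlapped fully. The log2 fold change was 0.07 with a 95% interval of -0.57 to 0.72 (edgeR adjusted p = 0.86), so that a change of the size seen in THBS1 was not detectable at this depth.

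SPARC, or osteonectin, is a collagen-binding calcium protein and among the most abundant noncollagenous proteins of bone. SPARC (ENSG00000113140; chromosome 5, 151661096 to 151687165, minus strand) had 1486, 1474 and 1265 CPM in siSURF2 replicates 1, 2 and 3, against 991.9, 1048 and 1016 CPM in siSCR replicates 1, 2 and 3. siSURF2 replicate 3 was the lowest of its group and still above every siSCR library. The means were 1408 ± 124.0 CPM with siSURF2 and 1019 ± 28.4 CPM with siSCR, and SPARC rose by 0.47 ± 0.06 (log2, SE, edgeR adjusted p = 5.1e-08). With ERCC library sizes the log2 fold change was 0.41 ± 0.26 (SE) and the adjusted p was 0.40 (range 4.3e-20 to 0.40 over all alternatives). Its reads alone were 0.129% to 0.149% of all gene counts in siSURF2 libraries and 0.0973% to 0.104% in siSCR libraries. Periostin, a matricellular protein of periosteum and ligament, was at or below the limit of detection. POSTN (ENSG00000133110; chromosome 13, 37562583 to 37598844, minus strand) had no count in the 3 siSURF2 libraries and 1 count, in siSCR replicate 3, in the siSCR libraries, and a count of 0 allows a level of up to 0.150 to 0.179 CPM in these libraries, counting error only.

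Fibronectin is the glycoprotein whose fibrils cells assemble through integrins and on which other matrix is laid. FN1 (ENSG00000115414; chromosome 2, 215360440 to 215436172, minus strand) had 191.2, 156.8 and 182.6 CPM in siSURF2 replicates 1, 2 and 3, against 77.0, 76.0 and 94.0 CPM in siSCR replicates 1, 2 and 3. The lowest siSURF2 library, replicate 2, lay well above the highest siSCR library, replicate 3. The means were 176.9 ± 17.9 CPM with siSURF2 and 82.3 ± 10.1 CPM with siSCR, a 2.15-fold higher level, and FN1 rose by 1.10 ± 0.09 (log2, SE, edgeR adjusted p = 5.9e-07). The counts are per gene and do not tell apart the splice forms of plasma and cellular fibronectin.

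Fibulins are short proteins of repeated EGF-like modules, and beside EFEMP2, chosen for its lower level with siSURF2, EFEMP1 and FBLN1 rose. Fibulin 3, the product of EFEMP1, is expressed in connective tissue and in the eye. EFEMP1 (ENSG00000115380; chromosome 2, 55865967 to 55924139, minus strand) had 58.5, 70.1 and 66.5 CPM in siSURF2 replicates 1, 2 and 3, against 28.8, 30.7 and 36.7 CPM in siSCR replicates 1, 2 and 3. The groups were far apart, and siSCR replicate 3 was the highest of its group, as it was for TNC, EFEMP2, THBS1, FN1, FBLN1 and FBN1. The means were 65.0 ± 5.96 CPM with siSURF2 and 32.1 ± 4.10 CPM with siSCR, a 2.03-fold higher level, and EFEMP1 rose by 1.02 ± 0.08 (log2, SE, edgeR adjusted p = 6.6e-10). EFEMP2, its close relative, had the log2 fold change of -2.03 by which it was chosen. On the TPM scale, which divides counts by exon length and rescales them to the same total in every library, EFEMP1 was 6.52, 8.19 and 8.09 times EFEMP2 in siSURF2 replicates 1, 2 and 3, against 0.840, 0.889 and 1.01 times in siSCR replicates 1, 2 and 3. With the length of the longest transcript in place of all exons the ratios were 3.61, 4.52 and 4.47 in siSURF2 replicates 1, 2 and 3, against 0.464, 0.491 and 0.561 in siSCR replicates 1, 2 and 3, and EFEMP2 then lay apart above EFEMP1 in siSCR libraries.

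Fibulin 1 binds fibronectin, laminin and elastin. FBLN1 (ENSG00000077942; chromosome 22, 45502238 to 45601135, plus strand) had 138.4, 137.4 and 123.1 CPM in siSURF2 replicates 1, 2 and 3, against 122.3, 119.1 and 123.0 CPM in siSCR replicates 1, 2 and 3. siSURF2 replicate 3 was level with siSCR replicate 3, and the other siSURF2 libraries were higher. The means were 133.0 ± 8.55 CPM with siSURF2 and 121.5 ± 2.10 CPM with siSCR, with a log2 fold change of 0.13 ± 0.05 (SE) that passed narrowly (edgeR adjusted p = 0.042). The call was lost with DESeq2 (adjusted p = 0.091), with ERCC library sizes (0.92) and when siSCR replicate 1, siSCR replicate 2, siSURF2 replicate 1 or siSURF2 replicate 2 was left out (0.080, 0.11, 0.12 and 0.15 in that order), within a range of 0.0033 to 0.92 over all alternatives.

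Fibrillin 1 forms the microfibrils on which elastin is laid and to which latent TGF-beta is tethered; its mutations cause Marfan syndrome. FBN1 (ENSG00000166147; chromosome 15, 48408306 to 48645849, minus strand) had 11.7, 11.4 and 10.5 CPM in siSURF2 replicates 1, 2 and 3, against 5.42, 5.88 and 7.39 CPM in siSCR replicates 1, 2 and 3. The siSURF2 libraries were close together, and the siSCR libraries, with 91 to 144 counts each, were more spread and all lower. The means were 11.2 ± 0.604 CPM with siSURF2 and 6.23 ± 1.03 CPM with siSCR, a 1.79-fold higher level, and FBN1 rose by 0.83 ± 0.13 (log2, SE, edgeR adjusted p = 2.3e-06). With ERCC library sizes the log2 fold change was 0.76 ± 0.30 (SE) and the adjusted p was 0.097 (range 1.7e-10 to 0.097 over all alternatives).

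Compared per length, the 10 genes spanned more than 3 orders of magnitude. SPARC led in both, at 1028 ± 106.9 TPM in siSURF2 libraries and 748.7 ± 25.7 TPM in siSCR libraries (SD, n = 3 each). In siSURF2 libraries it was followed by TNC at 67.2 ± 4.79 TPM, FBLN1 at 64.4 ± 5.26 TPM and EFEMP1 at 58.0 ± 7.09 TPM, and the ranges of neighbours among these 3 overlapped. FN1 (35.9 ± 2.46 TPM), THBS1 (14.96 ± 0.876 TPM), EFEMP2 (7.64 ± 0.377 TPM), FBN1 (2.45 ± 0.165 TPM) and THBS2 (0.594 ± 0.127 TPM) came next, each with a range apart from its neighbours. In siSCR libraries FBLN1 was second at 59.2 ± 1.81 TPM, with EFEMP2 (31.4 ± 1.45 TPM) and EFEMP1 (28.8 ± 4.22 TPM) overlapping after it. THBS1 (21.6 ± 2.12 TPM), FN1 (16.9 ± 2.39 TPM) and TNC (15.9 ± 1.06 TPM) followed with ranges that overlapped between neighbours, and FBN1 (1.38 ± 0.255 TPM) and THBS2 (0.569 ± 0.126 TPM) came last of those expressed. TNC was in place 2 of 10 in siSURF2 libraries and place 7 in siSCR libraries, and EFEMP2 in place 7 with siSURF2 and place 3 with siSCR, places that follow from the values by which both were chosen. Of the other 8 genes, FN1 and THBS1 exchanged places between the groups, and their ranges overlapped in siSCR libraries. This exchange was not seen with the length of the longest transcript. FN1 was then in place 5 in both groups, and THBS1 in place 7 with siSURF2 and 6 with siSCR. Their ranges then lay apart in siSCR libraries. With the length of the longest transcript in place of all exons, TNC was in place 3 with siSURF2 and 7 with siSCR, EFEMP2 in place 6 and 3, and FBLN1 stood apart above TNC at 119.9 ± 8.65 TPM with siSURF2 and 109.4 ± 3.06 TPM with siSCR. All 10 genes together took 0.190% to 0.214% of gene counts in siSURF2 libraries and 0.134% to 0.142% in siSCR libraries.

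**Figure D2:**
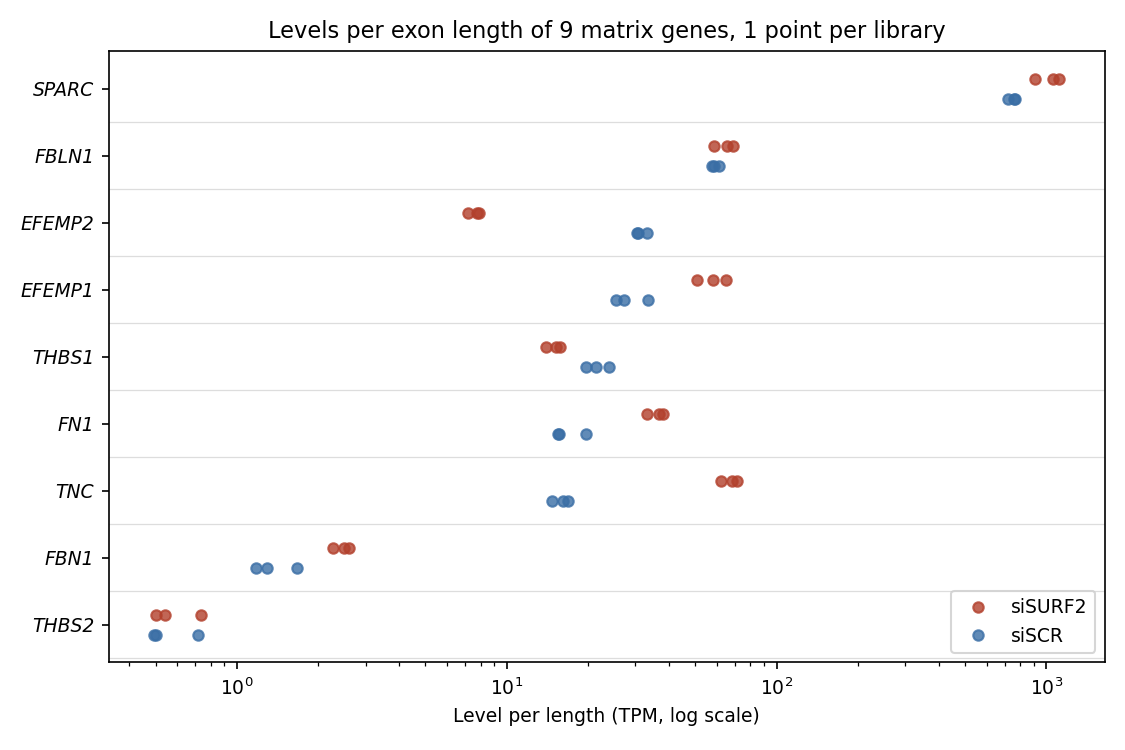
Level per exon length in TPM (log scale) of the 9 genes with counts in every library, with 1 point per library, siSURF2 in red above siSCR in blue, and genes ordered from the highest to the lowest siSCR mean. EFEMP2 lies to the left of its siSCR points, at 7.21 to 7.93 TPM against 30.3 to 33.0 TPM, while TNC lies to the right, at 62.0 to 71.4 TPM against 14.7 to 16.8 TPM.

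The spread between replicates differed among the genes. The coefficient of variation within a group was 4.34% in siSURF2 and 2.80% in siSCR libraries for EFEMP2, and 10.1% in siSURF2 and 12.3% in siSCR libraries for FN1. It was 5.41% in siSURF2 and 16.6% in siSCR libraries for FBN1, and 17.6% in siSURF2 and 23.5% in siSCR libraries for THBS2, the least counted of the genes tested. Without siSURF2 replicate 2, the library that stood farthest from its group, the log2 fold changes were 2.11 for TNC, -2.03 for EFEMP2, 1.18 for FN1, 0.96 for EFEMP1, 0.82 for FBN1, 0.43 for SPARC and -0.53 for THBS1.

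By the smallest root mean square difference of centred log2 CPM over the 6 libraries, among 12353 protein-coding genes, the genes most like TNC were GXYLT2 (difference 0.09), TJP3 (0.11) and ADCY1 (0.12). GXYLT2 averaged 44.8 CPM with siSURF2 and 11.1 CPM with siSCR. The genes most like EFEMP2 were ANXA8 (0.07), ZNF283 (0.09) and UBE2V2 (0.10), and ANXA8 averaged 6.99 CPM with siSURF2 and 26.8 CPM with siSCR. ANXA8 has near-identical copies in the genome, which makes its count uncertain. With 6 libraries in 2 groups, this likeness mostly reflects the size of the group difference.

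The relatives of these genes were read from the same test. Of 48 other genes of the same families and of elastic fibre assembly, 37 were tested, 12 rose, 13 fell and 12 were not called, which is 32.4% and 35.1% of those tested against 25.8% and 26.2% over all genes. Their median log2 fold change was -0.12. TNXB, the tenascin of loose connective tissue, was at 2.98 ± 0.437 CPM with siSURF2 and 4.23 ± 0.396 CPM with siSCR and fell by 0.51 ± 0.18 (log2, edgeR adjusted p = 0.019), the opposite sign to TNC. The adjusted p of TNXB ranged from 0.019 to 0.41 over all alternatives and was above the threshold in 4 of 14. TNR and TNN, the tenascins of the nervous system and of bone and kidney, had at most 4 counts in a library. Among thrombospondins, THBS3 fell with THBS1 and had 10.8 ± 1.86 CPM in siSURF2 and 19.1 ± 1.68 CPM in siSCR libraries (-0.83 ± 0.11, adjusted p = 3.3e-07). THBS4 rose, with 3.22 ± 0.662 CPM in siSURF2 and 1.11 ± 0.112 CPM in siSCR libraries (1.53 ± 0.24, adjusted p = 4.8e-06), and COMP, the thrombospondin of cartilage, had at most 9 counts.

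Of 5 tested relatives of SPARC, SPOCK1 and SMOC1 rose, FSTL1 fell and 2 were not called. The shares called over all genes tested were 25.8% higher and 26.2% lower. FSTL1, a secreted follistatin-like glycoprotein, was at 165.2 ± 5.78 CPM with siSURF2 and 364.0 ± 25.3 CPM with siSCR and fell by 1.14 ± 0.05 (log2, edgeR adjusted p = 2.5e-16), whereas SPOCK1, a testican proteoglycan, rose by 0.54 ± 0.08 (adjusted p = 7.0e-07). SMOC1 passed narrowly (adjusted p = 0.042), and did not pass in 8 of 14 alternatives. Of 7 other matricellular genes tested, 2 rose and 3 fell, which is 28.6% and 42.9% against 25.8% and 26.2% over all genes. CCN3, a growth-restraining CCN protein, was at 50.7 ± 3.53 CPM with siSURF2 and 13.8 ± 0.292 CPM with siSCR and rose by 1.88 ± 0.08, and SPP1, or osteopontin, a phosphoprotein of bone, rose by 1.67 ± 0.19. CCN1, CCN2 and TGFBI, which are induced by YAP or TGF-beta in many cells, fell by 1.23 ± 0.05, by 0.93 ± 0.07 and by 0.50 ± 0.05.

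Among the other fibulins and the related hemicentins, FBLN5, which tethers elastin to cells, rose by 0.34 ± 0.09 (log2, edgeR adjusted p = 0.0031). HMCN1 rose by 2.27 ± 0.16 and HMCN2 fell by 1.20 ± 0.31, at levels of 10.1 ± 1.10 CPM and 0.691 ± 0.128 CPM in siSURF2 libraries and 2.09 ± 0.429 CPM and 1.61 ± 0.197 CPM in siSCR libraries. HMCN2 rests on 10 to 16 counts in siSURF2 libraries (edgeR adjusted p = 0.0017) and lost the call in 1 of 14 alternatives. Of 5 tested relatives of FBN1, the 4 latent TGF-beta binding proteins rose and FBN2 was not called. That is 80.0% higher, against 25.8% over all genes tested. LTBP1 had 10.0, 11.2 and 10.2 CPM in siSURF2 replicates 1, 2 and 3, against 3.69, 2.57 and 3.54 CPM in siSCR replicates 1, 2 and 3, and rose by 1.68 ± 0.14. LTBP2 and LTBP3 rose by 0.90 ± 0.06 and 0.73 ± 0.06, and LTBP4 by 0.13 ± 0.05 (adjusted p = 0.028, above the threshold in 4 of 14 alternatives). FBN2, the fibrillin of early development, was at 52.8 ± 2.56 CPM with siSURF2 and 57.9 ± 4.77 CPM with siSCR and was not called (log2 fold change -0.13, 95% interval -0.26 to -0.00, adjusted p = 0.087).

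Of 14 tested genes of elastic fibre assembly, MFAP2 rose, 6 fell and 7 were not called, with a median of -0.19. That is 7.14% higher and 42.9% lower, against 25.8% and 26.2% over all genes tested. MFAP5, a glycoprotein that decorates microfibrils, had 5.77, 5.94 and 3.90 CPM in siSURF2 replicates 1, 2 and 3, against 62.3, 63.9 and 77.7 CPM in siSCR replicates 1, 2 and 3. It fell by 3.71 ± 0.12 (log2, edgeR adjusted p = 2.4e-13), while MFAP2, its paralog on the same microfibrils, rose by 0.38 ± 0.07 (adjusted p = 2.6e-05). MFAP3 and EMILIN2 fell by 0.89 ± 0.07 and by 0.60 ± 0.07. Of the cross-linking enzymes, LOX, LOXL1 and LOXL3 were not called (log2 fold changes -0.15, -0.12 and -0.07). LOXL2 fell by 0.20 ± 0.06, a call lost in 2 of 14 alternatives, and LOXL4 fell by 0.18 ± 0.07, a call lost in 9 of 14. MFAP2 and EMILIN2, and of the relatives named above SPOCK1, TGFBI, FBLN5 and LTBP3, each lost the call in 1 of 14. Elastin itself was hardly counted: ELN had 8, 1 and 0 counts in siSURF2 replicates 1, 2 and 3 and 4, 9 and 6 counts in siSCR replicates 1, 2 and 3.

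**Figure D3:**
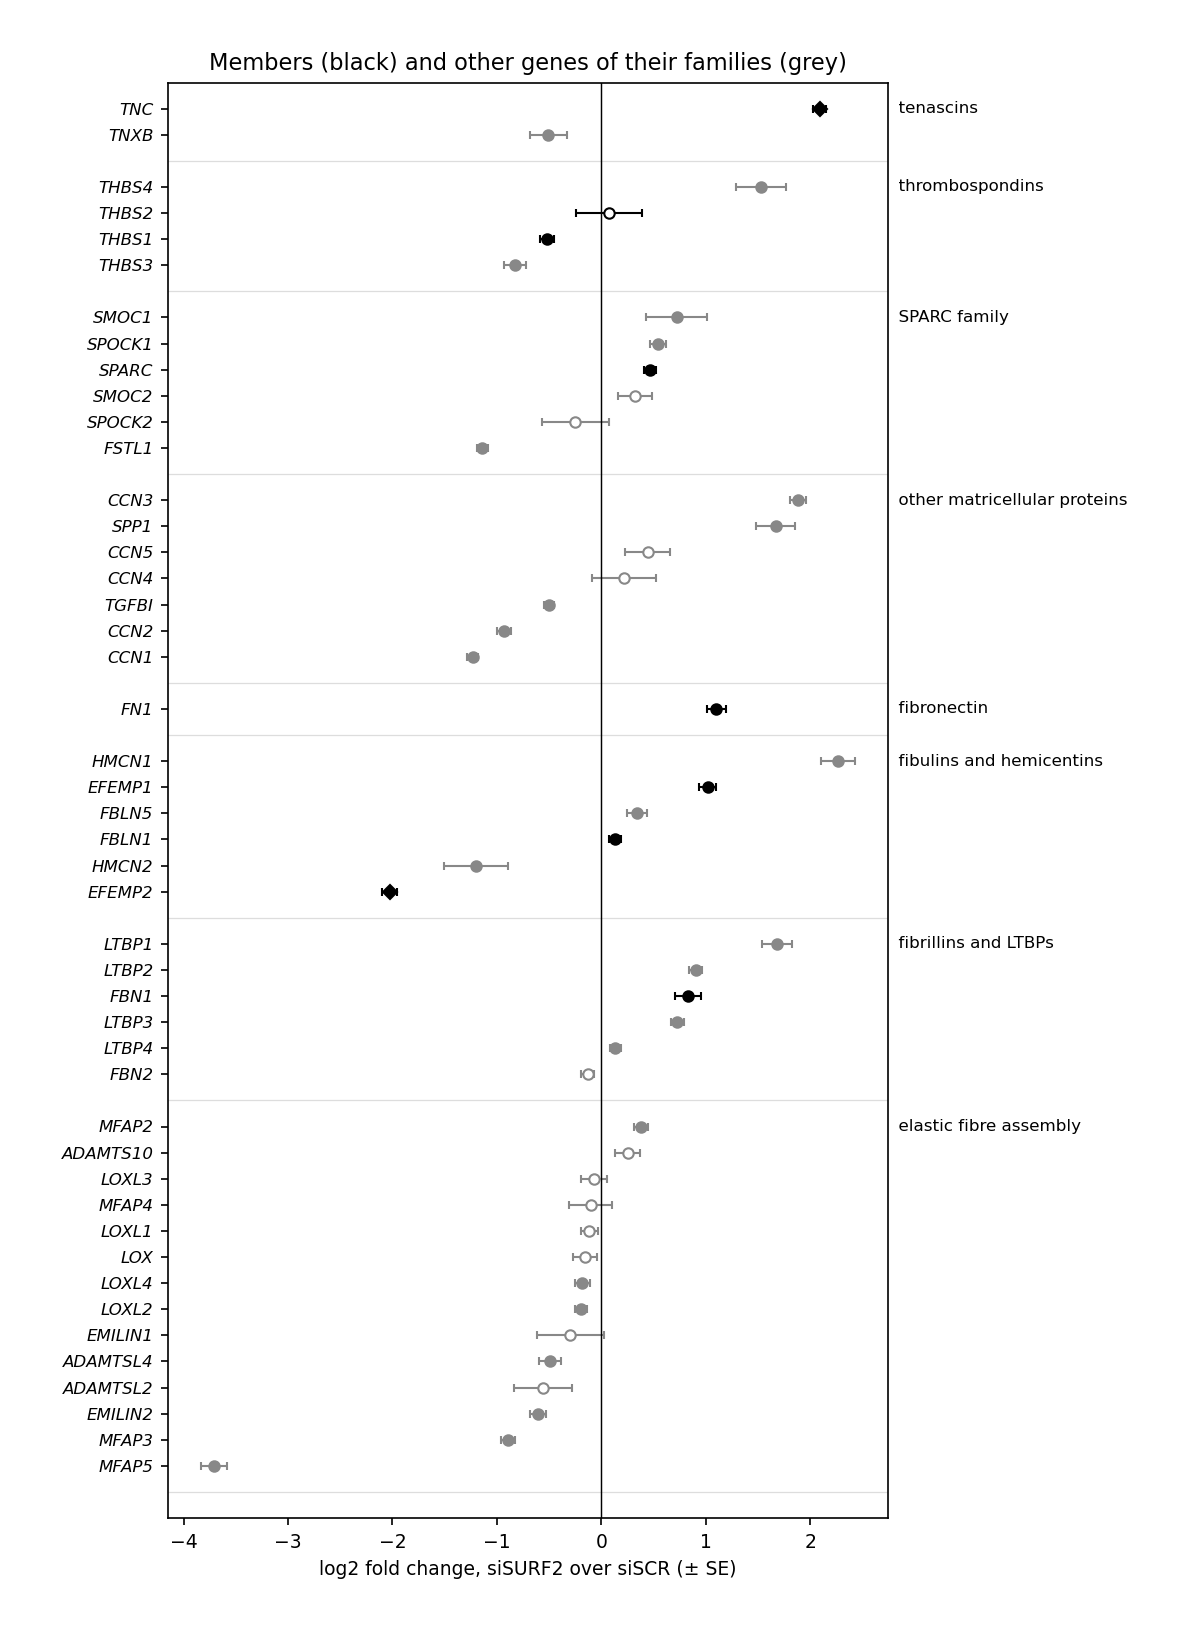
Log2 fold change of siSURF2 over siSCR with its SE for the 9 genes tested (black) and 37 relatives (grey), by family. Filled circles passed the edgeR test and open circles did not, and diamonds mark TNC and EFEMP2, which were chosen by these values; LTBP1, LTBP2, LTBP3 and LTBP4 lie on the right with FBN1, and MFAP5 lies farthest to the left at -3.71.

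Cells meet these proteins through integrins, syndecan 4, CD47 and LRP1. Of 11 receptor genes tested, 5 rose, 4 fell and 2 were not called. That is 45.5% higher and 36.4% lower, against 25.8% and 26.2% over all genes tested. ITGA5, the alpha chain of the main fibronectin receptor, was at 166.4 ± 7.10 CPM with siSURF2 and 105.5 ± 6.56 CPM with siSCR and rose by 0.66 ± 0.05 (log2, edgeR adjusted p = 4.6e-11), as FN1 did. Its partner ITGB1 was at 752.0 ± 1.59 CPM with siSURF2 and 827.0 ± 62.5 CPM with siSCR and fell by 0.14 ± 0.05 (adjusted p = 0.028, above the threshold in 7 of 14 alternatives). CD47, a receptor of thrombospondin 1, rose by 0.80 ± 0.06 (51.1 ± 1.46 CPM in siSURF2 and 29.3 ± 0.653 CPM in siSCR libraries), the opposite sign to THBS1, and CD36, another thrombospondin receptor, had at most 3 counts. ITGB5 rose by 0.72 ± 0.05, and SDC4, which binds the heparin site of fibronectin, fell by 0.54 ± 0.05. ITGA4 fell by 0.54 ± 0.17 (above the threshold in 5 of 14 alternatives), and ITGAV, an alpha chain that pairs with ITGB5, fell by 0.19 ± 0.07 (above it in 8 of 14).

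The matrix proteins store and release TGF-beta, and of 11 genes of that pathway 5 rose, 2 fell and 4 were not called. That is 45.5% higher and 18.2% lower, against 25.8% and 26.2% over all genes tested. TGFB1 fell by 0.20 ± 0.05 and TGFBR3 by 0.25 ± 0.08, and TGFB2 and TGFB3 rose by 0.22 ± 0.07 and 0.36 ± 0.12. TGFBR3, TGFB2 and TGFB3 each lost the call in 4 of 14 alternatives. SMAD7 and SKIL, inhibitors that TGF-beta signalling induces, rose by 0.53 ± 0.08 and 0.79 ± 0.07 (edgeR adjusted p = 4.0e-06 and 6.4e-10). SMAD3, a transducer of the signal, was at 240.6 ± 5.42 CPM with siSURF2 and 209.7 ± 3.44 CPM with siSCR and rose by 0.20 ± 0.05 (adjusted p = 0.00085). SMAD2, SMAD4, TGFBR1 and TGFBR2 were not called. With ERCC library sizes the edgeR test called 0 of the receptor and TGF-beta genes, of which 5 were higher and 1 lower at an unadjusted p under 0.05.

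**Figure D4:**
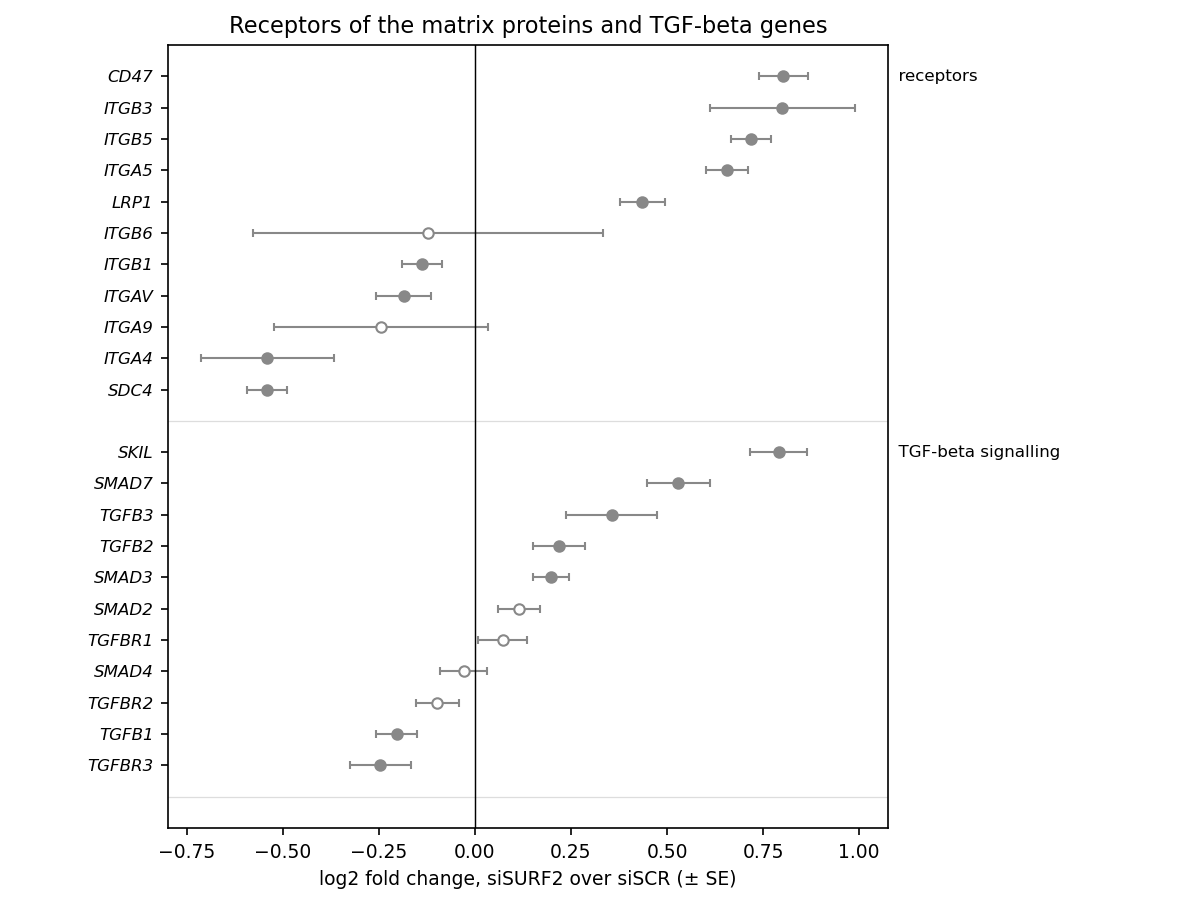
Log2 fold change of siSURF2 over siSCR with its SE for 11 receptor genes of the matrix proteins and 11 genes of TGF-beta signalling. Filled circles passed the edgeR test and open circles did not; CD47 is at 0.80 and SDC4 at -0.54.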

How the data were processed

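PolyA RNA of 3 siSURF2 and 3 siSCR libraries of U2OS cells was sequenced, and the values the authors deposited are raw counts per gene, not normalized. Per the submitters' processing notes, tools included fastp 0.23.1 and STAR 2.5.2b with the GRCh38 build; no source used here names the counter, the annotation or the strand setting, so reads of overlapping genes on opposite strands cannot be told apart. The table held 58051 gene identifiers, named from a table of gene names (56948) or GENCODE release 29 (499), and 92 ERCC spike-ins. In the main analysis the spike-ins entered neither library sizes nor tests, and they made up 1.12% to 1.72% of all counts. Their totals set the library sizes only in the alternative named for them. Positions and exon lengths are those of GENCODE 29.

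In R 4.3.3, edgeR 4.0.16 was used to remove low genes (its filterByExpr at a minimum count of 10 and total of 15), to scale by TMM and to run the robust quasi-likelihood F-test. The p-values of the 17561 remaining genes were adjusted after Benjamini and Hochberg (threshold 0.05). A standard error is the log2 fold change without edgeR's prior count over the square root of F; printed log2 fold changes include that prior. CPM are TMM-normalised; floors and intervals cover counting or model error only.

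The members and lists were chosen with earlier results of these data known, and motifs with the promoter sequences seen. Named were all members and, per list, up to 3 genes per direction with the smallest adjusted p, beside other list genes by their call. TNC and EFEMP2 were part of the fit, but their p-values are not given because both were chosen by their values. A gene of the TGF-beta list is not reported here. Alternatives were RLE and upper-quartile factors, ERCC library sizes, no filter, a filter of 1 CPM, DESeq2 1.42.0, a replicate block, and leaving out libraries.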

Additional observations from a re-analysis of the deposited data

How the results depend on the processing

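Of the 8 genes listed by family, 5 were called higher and 1 lower in the main analysis, in which POSTN was not tested. The counts were 4 to 5 higher and 1 lower when each library was left out in turn. Over all genes, 25.8% were called higher and 26.2% lower in the main analysis. With each library left out in turn, 4082 to 4292 were called higher and 3878 to 4574 lower, of 17871 to 18097 tested. With library sizes set by ERCC totals, 802 genes were called higher and 825 lower of all tested, 2 and 0 of those 8 genes, 6 and 6 of the relatives, and 0 and 0 of the receptor and TGF-beta genes (3 and 1 of those 8 genes and 5 and 1 of the receptor and TGF-beta genes at an unadjusted p under 0.05); all 9 tested members kept their direction. The receptor and TGF-beta genes called lower were 6, against 2 without both libraries numbered 3 and 3 to 7 when each library was left out, the lowest count of 3 being without siSURF2 replicate 3 and without siSCR replicate 3, and the cause was not tested. Upper-quartile factors moved the share of higher calls to 56.4%, against 49.7%. Groups share replicate numbers, and nothing in the labels says whether these pair the libraries. Deviations of same-numbered libraries correlated at 0.00, -0.09 and -0.04, and those of differently numbered libraries at -0.08 to 0.12. With so few libraries these values cannot settle whether the numbers pair them. A fit with the replicate block called 5 of the 8 genes higher and 1 lower, and 4478 higher and 4550 lower of all 17561 tested. In that fit the SE of FN1 was 0.06, against 0.09 in the main fit. Over all alternatives the log2 fold change of TNC ranged from 2.04 to 2.17 and that of EFEMP2 from -2.08 to -1.97. THBS2, at 17 to 25 counts, and genes below about 1 CPM are limited by depth.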
